A study of Homo sapiens with 6 samples.

Results

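The mitochondrial DNA expression machinery was followed as 10 nuclear genes, chosen by function and found in the count table by gene symbol. They were TFAM, POLRMT, TFB1M, TFB2M, LRPPRC, SLIRP, SSBP1, TUFM, TWNK and MTO1. Of these 10 members 8 had a row in the table, with 42 of its 21472 transcript models and 8 of its 10072 genes. POLRMT and TWNK had no row. The libraries came from Calu-6 cells, an established human lung cancer line labelled as wild type, and were made from long cDNA reads. Before sequencing, cells took up 10 nM of siRNA for 48 h. It was either one that silences nothing (siControl, 3 libraries) or one to the junction of exons 1 and 5 of TERT (siDelta2-4, 3 libraries). By the study, this junction is found in the Delta2-4 splice variant and in another variant that skips further exons. For this sequencing the study's methods name Calu-6 lines that stably carry an empty vector or one with Delta2-4. The names of the count columns hold its word for the empty vector. This difference from the wild-type label was not resolved. The comparison asked what changed in the cells after siDelta2-4 treatment, and here it is read for the proteins that copy, transcribe and translate mitochondrial DNA.

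Mitochondrial DNA is a small circle that is transcribed from both strands into long precursors by the RNA polymerase POLRMT, with TFAM and TFB2M as its initiation factors. TFAM also packs the DNA, SSBP1 coats its single strands, and the helicase TWNK unwinds it during replication. The transcripts are cut at tRNAs, held stable by the LRPPRC and SLIRP complex, and translated on mitochondrial ribosomes, whose small rRNA is methylated by TFB1M and whose elongation factor is TUFM. MTO1 modifies the wobble base of mitochondrial tRNAs. All 10 proteins are made from nuclear genes and imported.

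Library totals were 1106413, 1077555 and 1037468 counts for siControl, and for siDelta2-4 they were 1309241, 1183889 and 1070009. Below, the values of a group are given in this order, from the library with the highest total to the one with the lowest, since no label tied a replicate number to a column. Levels are CPM, the counts of a gene set to a common library size, with totals scaled by the trimmed mean of M-values (TMM). The study calls its replicates biological, but the labels name no separate culture for each library, and p-values measure the spread between these libraries. Every model in the table had a count in siDelta2-4, and so a gene that was counted in siControl alone could not have a row. TERT had 0 rows, and its knockdown was not checked here. Of 6 epithelial markers KRT8 had 824 counts and KRT18 1124, while KRT7 had 41, EPCAM 13, KRT19 1 and CDH1 no row. Of 4 mesenchymal markers VIM had 987 counts and FN1 2, while CDH2 and ZEB1 had no row. Blood markers had 8 counts in all, the fibroblast marker LUM 12, and the endothelial markers no row. In edgeR's quasi-likelihood test 504 of 3888 genes (13%) passed an adjusted p of 0.1, with 272 higher (7%) and 232 lower (5.97%) in siDelta2-4. With library totals alone as scaling the split was 361 higher and 152 lower, and with a trend on transcript length removed it was 195 higher and 285 lower. Without the siControl library of lowest total 1041 genes were called, and without the siDelta2-4 library of middle total 194.

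The promoters of 8 members were in the RefSeq table for GRCh38.p14, which gives 250 bases before and 50 after the start of a gene. They were searched on both strands for GCATGCGC, a form of the site of NRF1, and CCGGAAG, a form of the site of GABP, both of which are known activators of nuclear genes for mitochondria. GCATGCGC was found in 3 of the 8 (POLRMT, TFB1M and TFB2M), beside 1072 of all 35116 promoters (3.05%). CCGGAAG was found in 5 of the 8 (POLRMT, TFB1M, SLIRP, SSBP1 and TUFM), beside 3603 of all promoters (10.3%). The windows of TFAM and LRPPRC held neither string. A match describes the letters and is not a measured binding site. The windows of 3 members are printed from 5′ to 3′ with each match in capitals: SLIRP, the member whose level passed the test, SSBP1, where an opposite-strand gene starts inside the window, and TFB1M, which holds both strings. In TFB1M the capitals of the first match cover GCATGCGC on one strand and its copy on the other, which overlap, and the next match is CCGGAAG on the opposite strand.
SLIRP, chr14:77707853-77708152, plus strand: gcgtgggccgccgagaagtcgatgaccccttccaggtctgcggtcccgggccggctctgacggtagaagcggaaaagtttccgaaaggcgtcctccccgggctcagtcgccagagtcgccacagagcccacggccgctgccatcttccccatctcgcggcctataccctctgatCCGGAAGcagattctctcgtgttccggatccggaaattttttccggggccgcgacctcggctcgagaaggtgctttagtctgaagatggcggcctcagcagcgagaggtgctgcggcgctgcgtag
SSBP1, chr7:141738071-141738370, plus strand: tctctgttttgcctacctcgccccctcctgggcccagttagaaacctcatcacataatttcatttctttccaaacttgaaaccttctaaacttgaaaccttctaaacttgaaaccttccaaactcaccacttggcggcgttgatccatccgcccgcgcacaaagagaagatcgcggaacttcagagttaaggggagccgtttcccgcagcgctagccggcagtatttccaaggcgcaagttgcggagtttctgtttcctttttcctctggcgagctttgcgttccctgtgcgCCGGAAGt
TFB1M, chr6:155314435-155314734, minus strand: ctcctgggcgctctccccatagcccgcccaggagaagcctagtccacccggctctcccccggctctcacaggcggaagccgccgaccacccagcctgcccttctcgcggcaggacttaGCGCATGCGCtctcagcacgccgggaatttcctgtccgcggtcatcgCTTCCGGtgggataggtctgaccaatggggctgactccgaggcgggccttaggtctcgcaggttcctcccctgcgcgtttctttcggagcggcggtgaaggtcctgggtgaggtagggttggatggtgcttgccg

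Among the members that could be tested, 1 was lower in siDelta2-4 and none was higher. Of the 5 members tested, SLIRP was called lower, while SSBP1, TUFM, TFB1M and MTO1 did not pass. Of all genes tested 13% were called and 5.97% were called lower. By the DESeq2 Wald test the count was also 1 of 5, with 1 given no adjusted p, beside 254 of all 3888 genes. The CPM of 2 of the 5, SLIRP and SSBP1, did not overlap between the groups, beside 26% of all genes tested. The median log2 fold change of the 5 was -0.21, beside 0.03 over all genes tested. The counts of the 8 members were unevenly spread, since MTO1 held 61.2% of their 17072 counts, SLIRP 20.2%, SSBP1 15.8% and TUFM 2.03%. In siControl the mean level was 1489 CPM for MTO1, 588 for SLIRP, 434 for SSBP1 and 57.2 for TUFM. TFB1M had 8.37, TFB2M 6.11, TFAM 3.21 and LRPPRC 1.61. Counts are of whole reads, so these levels were not divided by length. Whether the reads counted for MTO1 are of MTO1 was not tested. The order at the low end rests on few counts, and the 4 lowest cannot be ranked. In bulk libraries a lower level per cell and fewer cells of a kind cannot be told apart.

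**Figure D1:**
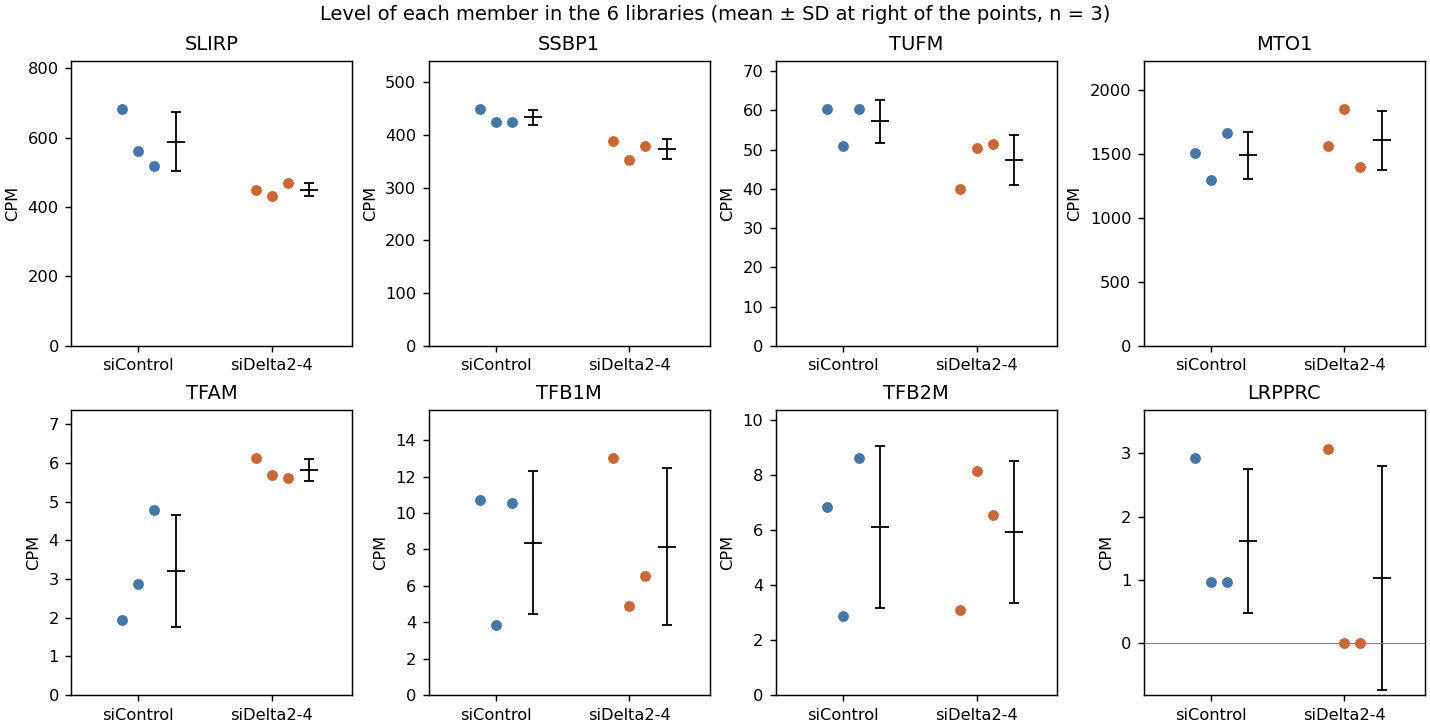
CPM of the 8 members with a row (vertical axes, each from its own scale) in the 3 siControl and 3 siDelta2-4 libraries, with the points of a group ordered from the highest to the lowest library total and the mean ± SD at their right. The SLIRP points lie at 518 to 683 CPM in siControl and at 431 to 469 in siDelta2-4, and those of TFAM, at no more than 8 counts each, lie apart in the opposite direction. TFAM was too low to pass the filter, and 26% of the genes tested did not overlap between the groups.

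SLIRP (ENSG00000119705.10, GRCh38 chr14:77708071-77761104, plus strand) encodes the RNA-binding partner of LRPPRC. It was counted 701, 586 and 541 times in siControl and 585, 531 and 501 times in siDelta2-4. As CPM these were 683, 562 and 518 against 449, 431 and 469. Every siControl library lay above every siDelta2-4 library, and the siControl library of highest total stood farthest from the rest. The mean fell from 588 ± 85.6 to 450 ± 18.8 CPM (SD, n = 3 each). The log2 fold change was -0.39 ± 0.10 (SE), with a 95% confidence interval of -0.59 to -0.19 and an adjusted p of 0.014 in edgeR's quasi-likelihood test. The call was lost without the siDelta2-4 library of middle total (log2 fold change -0.36, adjusted p = 0.111), and held in the other 16 of 17 alternatives. Removing a trend on transcript length brought the log2 fold change to -0.25 (adjusted p = 0.056).

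Length moved with the result. Among the 286 tested genes whose most counted model was under 500 bases, as that of SLIRP was, the median log2 fold change was -0.15 and 14.7% were called lower. Among the 1610 under 1000 bases the median was -0.08 and 10.7% were called lower. Among the 2278 genes of 1000 bases or more the median was 0.14 and 2.63% were called lower. Apart from the fit with the length trend removed, the part of length in the SLIRP result was not tested.

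Most SLIRP reads were of one annotated transcript. SLIRP-209, with 4 exons and 376 bases, held 88.7% ± 1.07 of the gene's siControl counts and 88.2% ± 1.86 of its siDelta2-4 counts (SD, n = 3 each). It fell from 523 ± 60.4 to 407 ± 6.33 CPM, a log2 fold change of -0.36 ± 0.09 (SE), at an adjusted p of 0.0209 in the same test on transcript models, where 6.91% of 6768 models were called. Its adjusted p was 0.154 without the siControl library of highest total and 0.116 without the siDelta2-4 library of middle total. The model next in count, SLIRP-201, was at 25.5 ± 12.5 and 16.5 ± 1.23 CPM (adjusted p = 0.272). The mix of SLIRP models did not pass the usage test (adjusted p = 0.86), in which 0.618% of 1132 genes were called. SNW1, which lies over most of SLIRP on the opposite strand (43506 bases of overlap), had 40 counts against 3445 for SLIRP.

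SSBP1 (ENSG00000106028.11, chr7:141738334-141787922, plus strand) encodes the mitochondrial single-stranded DNA binding protein. Its counts were 462, 443 and 444 in siControl and 506, 435 and 405 in siDelta2-4, or 450, 425 and 425 against 388, 353 and 379 CPM. All siControl values lay above all siDelta2-4 values. The mean was 434 ± 14.7 CPM in siControl and 374 ± 18.1 in siDelta2-4, with a log2 fold change of -0.21 ± 0.09 (SE), a 95% confidence interval of -0.40 to -0.03 and an adjusted p of 0.149, above the threshold. Without the siControl library of lowest total it passed (log2 fold change -0.25, adjusted p = 0.0433). With the length trend removed the log2 fold change was -0.13 (adjusted p = 0.348). The main SSBP1 model has 677 bases.

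The main model, SSBP1-201, made up 62.2% ± 2.59 of SSBP1 counts in siControl, against 62.0% ± 1.00 in siDelta2-4. It was at 271 ± 12.1 and 238 ± 6.79 CPM (log2 fold change -0.19 ± 0.10, adjusted p = 0.316). SSBP1-214, with 636 bases, was at 73.1 ± 9.76 and 71.5 ± 3.87 CPM. Of the 5 SSBP1 models tested with edgeR none was called, beside 6.91% of all 6768 models tested. With so few models this does not set SSBP1 apart.

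WEE2-AS1, a non-coding gene on the other strand (chr7:141704003-141738346), shares 13 bases with the start of SSBP1. It was counted 348, 384 and 314 times in siControl and 385, 352 and 304 times in siDelta2-4. For each SSBP1 count there were 0.753, 0.867 and 0.707 counts of WEE2-AS1 in siControl and 0.761, 0.809 and 0.751 in siDelta2-4, so this ratio overlapped between the groups. All 2087 counts were of unannotated models with 7 exons. The most counted of them had 1460 counts and was classed as an incomplete match to an annotated splice chain. It was 669 bases long. An annotated run of 7 SSBP1 exons matches this length exactly, while the nearest run of WEE2-AS1 exons differs by 218 bases. The other models differ by 0 to 9 bases from an SSBP1 length and by 42 to 153 from one of WEE2-AS1. For runs of 7 exons SSBP1 allows 150 lengths and WEE2-AS1 45, so SSBP1 has more lengths to match. Whether these reads are of SSBP1 or of WEE2-AS1 was not tested. The log2 fold change of WEE2-AS1 was -0.22 ± 0.10 (SE, adjusted p = 0.182).

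TUFM (ENSG00000178952.11, chr16:28842411-28846348, minus strand) encodes the mitochondrial elongation factor Tu. Its counts were 62, 53 and 63 in siControl and 52, 62 and 55 in siDelta2-4, or 60.4, 50.8 and 60.3 against 39.9, 50.4 and 51.5 CPM. The groups overlapped, with the siControl library of middle total below the highest siDelta2-4 value. The mean was 57.2 ± 5.53 CPM in siControl and 47.3 ± 6.40 in siDelta2-4. Its log2 fold change of -0.28 ± 0.18 (SE) had a 95% confidence interval of -0.64 to 0.08 and an adjusted p of 0.35. With the length trend removed it was -0.45 and passed (adjusted p = 0.0956). TUFM-201, which held 98.3% ± 1.82 of its siDelta2-4 counts, has 2011 bases.

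The transcription factors had few counts. TFAM (ENSG00000108064.11, chr10:58385345-58399220, plus strand) was counted 2, 3 and 5 times in siControl and 8, 7 and 6 times in siDelta2-4, or 1.95, 2.88 and 4.79 against 6.14, 5.69 and 5.62 CPM. Each siDelta2-4 library was above each siControl library, while among the genes tested 26% did not overlap between the groups. Every row had a count in siDelta2-4, so genes this low are favoured in the table when higher there. TFAM did not pass the filter on low counts and has no result in the main test. In a fit with no filter its log2 fold change was 0.82 ± 0.55 (SE), with a 95% confidence interval of -0.25 to 1.90 and an adjusted p of 0.611, so no difference was detectable at this depth. The median over all 10072 genes in that fit was 0.19. Of the 31 TFAM counts 23 were of TFAM-204, a model of 5025 bases, and 8 of TFAM-201, with 973.

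TFB2M (ENSG00000162851.8, chr1:246540561-246566261, minus strand), the partner of POLRMT at promoter opening, was counted 7, 3 and 9 times in siControl, against 4, 10 and 7 times in siDelta2-4. All 40 were of TFB2M-201 and the groups overlapped. In the fit with no filter its log2 fold change was -0.08 ± 0.47 (SE, adjusted p = 0.967). TFB1M (ENSG00000029639.11, chr6:155256134-155314493, minus strand), its relative that acts as an rRNA methyltransferase, was counted 11, 4 and 11 times in siControl, against 17, 6 and 7 times in siDelta2-4. It passed the filter, and its mean of 8.37 ± 3.92 CPM in siControl and 8.16 ± 4.31 in siDelta2-4 gave a log2 fold change of -0.01 ± 0.43 (SE), with a 95% confidence interval of -0.89 to 0.87 and an adjusted p of 0.997. The interval leaves room for a large change in either direction, and the sign turned in 5 of 15 alternatives. TIAM2, which overlaps TFB1M by 1590 bases on the other strand, had 58 counts beside 56 for TFB1M.

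LRPPRC (ENSG00000138095.20, chr2:43886224-43996226, minus strand), the partner of SLIRP, was counted 3, 1 and 1 times in siControl and 4, 0 and 0 times in siDelta2-4. With 9 counts in all, no more than 4 in a library, its level could not be compared with that of SLIRP, which had 3445. None of the 9 was of the canonical transcript LRPPRC-201, which has 38 exons and 6603 bases. There were 8 counts of LRPPRC-206, with 7 exons and 3549 bases, and 1 of LRPPRC-264. An overlapping gene on the other strand, ENSG00000288707, had 1 count.

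POLRMT (ENSG00000099821.14, chr19:617221-633537, minus strand) and TWNK (ENSG00000107815.10, chr10:100987367-100994403, plus strand) had no row, so neither the polymerase nor the helicase could be measured here. Their canonical transcripts have 3771 bases in 21 exons and 3616 bases in 5 exons. Ordered by the length of the canonical transcript, the 10 members run from SLIRP (376 bases) through SSBP1 (677), TFB2M (1784), TUFM (2011), TFB1M (2799), TWNK, POLRMT, TFAM (5025) and LRPPRC to MTO1 (10698). Among these 10, no canonical transcript of more than 2011 bases had over 56 counts, and TFB2M-201, with 1784, had 40. Outside the members EEF1A1-201, with 3512 bases, had 10447. Whether length limited the counts was not tested. MRPL43, which overlaps TWNK by 149 bases on the other strand and encodes a mitochondrial ribosomal protein, had 512 counts (log2 fold change 0.09 ± 0.16, adjusted p = 0.787).

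MTO1 (ENSG00000135297.17, chr6:73461578-73509236, plus strand) had the highest count of the members, 1546, 1352 and 1735 in siControl and 2039, 2282 and 1495 in siDelta2-4. As CPM these were 1507, 1297 and 1662 against 1565, 1854 and 1400. The groups overlapped, at 1489 ± 183 and 1606 ± 230 CPM (SD, n = 3 each), with a log2 fold change of 0.11 ± 0.10 (SE), a 95% confidence interval of -0.09 to 0.31 and an adjusted p of 0.527. Only 5 of the 10449 counts matched an annotated MTO1 transcript, MTO1-212, with 0, 1 and 2 in siControl and 0, 2 and 0 in siDelta2-4. The other 10444 counts were spread over 15 unannotated models, of which 7 were classed as incomplete matches to annotated splice chains with 8737 counts, 6 as new combinations of known splice sites and 2 as holding new splice sites.

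The gene on the other strand here is EEF1A1 (ENSG00000156508.19, chr6:73489308-73525587, minus strand), which encodes the cytosolic translation elongation factor eEF1A1, and the annotated genes overlap by 19929 bases. EEF1A1 was counted 2069, 1845 and 2085 times in siControl and 2775, 3027 and 2155 times in siDelta2-4, and its log2 fold change was 0.19 ± 0.08 (SE, adjusted p = 0.156). There were 0.747, 0.733 and 0.832 MTO1 counts for each EEF1A1 count in siControl and 0.735, 0.754 and 0.694 in siDelta2-4. The ratio thus overlapped between the groups at 0.771 ± 0.0537 and 0.727 ± 0.0307, although single libraries ranged from 1352 to 2282 MTO1 counts.

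The lengths of the MTO1 models were set beside the exons of both genes. The most counted model had 8 exons, 1747 bases and 6101 counts. EEF1A1-201 also has 8 exons, and when they are ended at 73517515, where 6 annotated EEF1A1 transcripts end, they come to exactly 1747 bases. On the chromosome EEF1A1-201 lies 6514 bases past the annotated end of MTO1. The MTO1 annotation allows 771 lengths for runs of 8 exons, and the nearest of these differs by 1 base, so this match alone does not separate the genes. The model next in count had 7 exons, 3479 bases and 880 counts. EEF1A1-201 without its first exon of 33 bases has 7 exons and exactly 3479 bases, and the nearest of 656 lengths of MTO1 runs differs by 379 bases. The EEF1A1 annotation allows 87 lengths for runs of 8 exons and 142 for runs of 7. Over the 15 unannotated models the nearest length was not always of the same gene. It was one of EEF1A1 for 6 models with 7780 counts and one of MTO1 for 8 models with 2234 counts. A further model with 430 counts was equally near to both. Of the 7780 counts, 6101 are of the 1747-base model, at a difference of 0 bases against 1. Differences this small do not separate the genes, and this tally cannot decide between them. Among the models nearer to MTO1 were one of 1072 bases with 545 counts, which differs by 2 bases from an MTO1 length and by 13 from an EEF1A1 length, and one of 608 bases with 159 counts, which differs by 1 and by 40. MTO1 allows more lengths than EEF1A1 for every number of exons among these models. In all, 8 of the unannotated MTO1 models had 8 exons and 1739 to 1754 bases, with 73.7% of the counts, and EEF1A1 itself had 7 unannotated models of 8 exons with 1738 to 1750 bases. The exon coordinates of the models were not used here, and whether these reads are of MTO1 or of EEF1A1 was not tested.

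**Figure D2:**
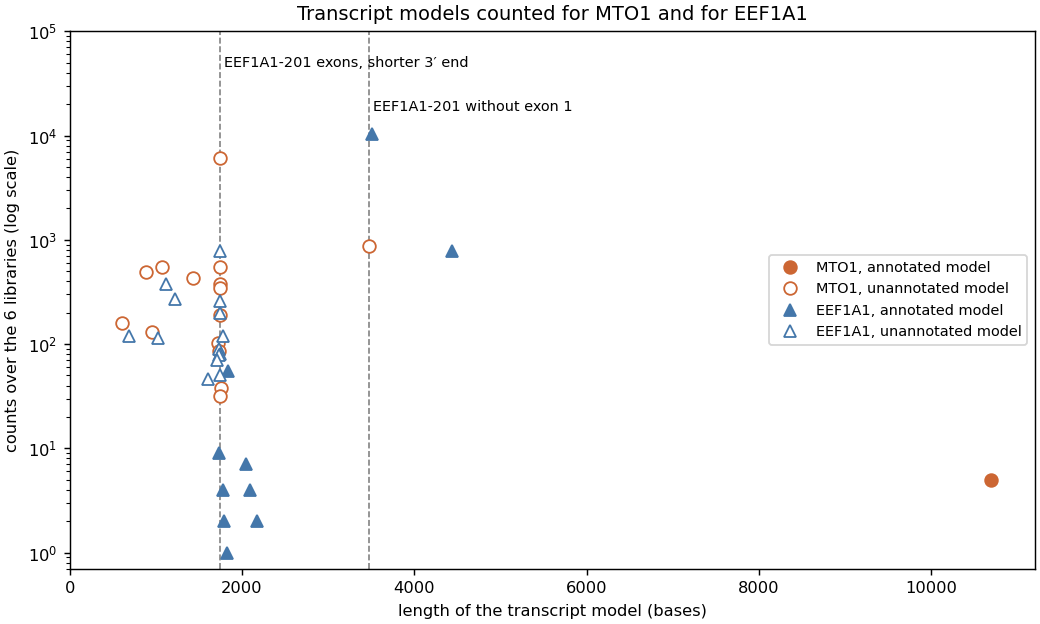
Each point is a transcript model of MTO1 (circles) or EEF1A1 (triangles), by its length in bases (horizontal axis) and its counts over the 6 libraries (vertical axis, log scale), with filled points for annotated models. The most counted MTO1 model lies on the dashed line at 1747 bases and the model next in count on the one at 3479 bases, while the annotated MTO1-212 lies at 10698 bases with 5 counts.

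Within MTO1 the mix of models varied between libraries. Models of 8 exons made up 61.4%, 61.1% and 79.0% of its siControl counts and 74.7%, 81.7% and 78.4% in siDelta2-4. The siControl library of lowest total lay within the siDelta2-4 range. The gene did not pass the usage test of edgeR (adjusted p = 0.133), but did so without that library (adjusted p = 6.62e-11), while without any of the other 5 libraries the adjusted p lay between 0.152 and 0.849. Of all 1132 genes in the usage test 0.618% were called. Of 13 MTO1 models tested, 2 were called, both lower in siDelta2-4, beside 6.91% of all 6768 models tested. The 2 called models had 6 exons and 1434 bases (log2 fold change -0.92 ± 0.23, adjusted p = 0.0214) and 5 exons and 1072 bases (-0.75 ± 0.19, adjusted p = 0.0214). The CPM of both overlapped between groups, since the siControl library of lowest total held 43 and 79 counts of them and the other siControl libraries 112 to 129. Both calls were lost without the siControl library of highest or of middle total, or without the siDelta2-4 library of middle total, with adjusted p from 0.131 to 0.208. The 1747-base model was not called (log2 fold change 0.35 ± 0.13, adjusted p = 0.128).

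The transcripts of the mitochondrial genome, on which these proteins act, were higher in siDelta2-4. Of the 37 annotated genes 20 had a row. Together they took 1.11%, 1.01% and 1.01% of the siControl counts and 1.44%, 1.33% and 1.39% in siDelta2-4, so that every siDelta2-4 library lay above every siControl library. The share was 1.04% ± 0.055 against 1.38% ± 0.056 (SD, n = 3 each), a ratio of 1.33, with an exact two-sided permutation p of 0.1, the smallest that 3 libraries against 3 allow. By kind, the rRNA genes went from 0.721% to 0.954% and the protein genes from 0.296% to 0.408%. The tRNA genes were at 0.025% ± 0.000692 and 0.022% ± 0.00348, with overlap (exact two-sided permutation p = 0.2). All tRNA genes with a row are annotated on the minus strand, so kind and strand cannot be told apart for them. Most of their counts were of MT-TY, which had 1442 over the 6 libraries.

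The summed share of the members was level between the groups with MTO1 counted and lower in siDelta2-4 without it. All 10 together took up 0.25% ± 0.022 of a siControl library and 0.253% ± 0.0258 of a siDelta2-4 library. Without MTO1 they held 0.113%, 0.101% and 0.104% in siControl and 0.0898%, 0.0888% and 0.0917% in siDelta2-4. These values did not overlap, and the means of 0.106% ± 0.00605 and 0.0901% ± 0.00147 gave a ratio of 0.851. SLIRP and SSBP1 hold most of this sum. It is a sum over chosen genes and was given no test.

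**Figure D3:**
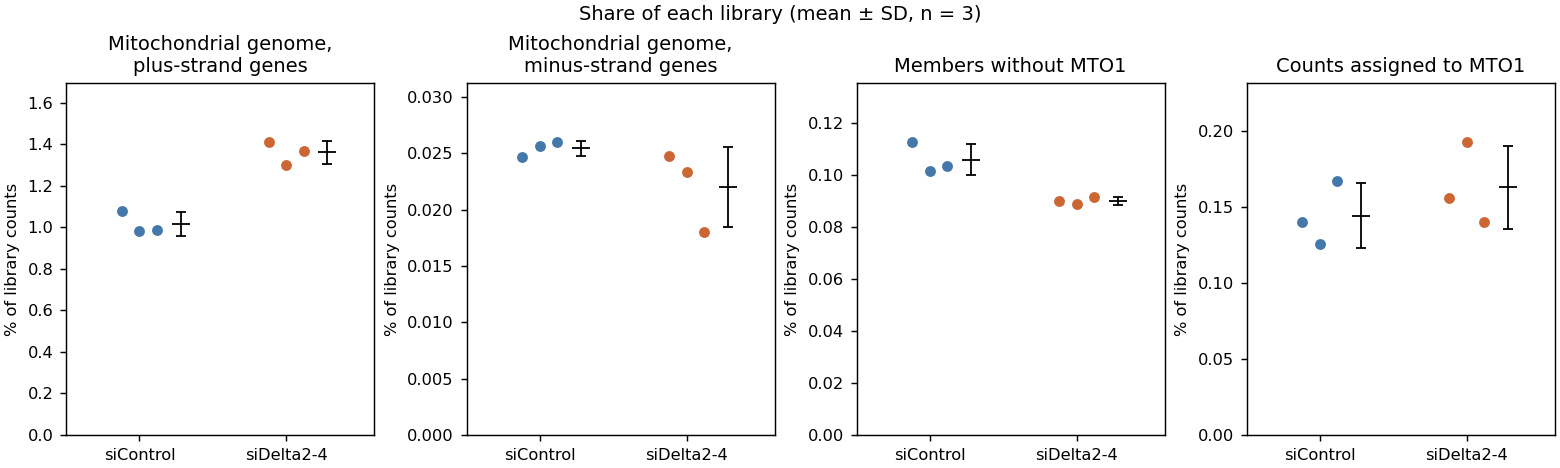
Share of the library counts in percent (vertical axes from 0) taken by plus-strand and minus-strand genes of the mitochondrial genome, by the members without MTO1 and by MTO1, with 3 libraries a group as points and the mean ± SD at their right. The plus-strand genes lie near 1.02% in siControl and 1.36% in siDelta2-4, while the members without MTO1 lie near 0.106% and 0.0901%. Most counts of the minus-strand genes are of MT-TY.

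The called genes were mostly those annotated on the plus strand, which hold both rRNAs and most of the messages. All 13 of them that were tested had a positive log2 fold change, beside 2094 of all 3888 genes tested. Their median was 0.36 and their range 0.09 to 0.68, beside a median of 0.03 over all genes. Of the 13, 10 were called higher, beside 7% of all genes tested. Genes of a strand are cut from shared long precursors, so the 13 are not independent observations. MT-CYB, cytochrome b of complex III (chrM:14747-15887), was counted 182, 142 and 162 times in siControl and 341, 281 and 278 times in siDelta2-4. Its level went up from 156 ± 20.7 to 250 ± 18.9 CPM (log2 fold change 0.68 ± 0.12, adjusted p = 0.000377). MT-RNR2, the large rRNA, rose from 4666 ± 380 to 6005 ± 376 CPM (log2 fold change 0.36 ± 0.08, adjusted p = 0.00452), and MT-RNR1, the small rRNA, from 2812 ± 436 to 3440 ± 189 CPM (0.29 ± 0.09, adjusted p = 0.044). Without the siControl library of lowest total MT-RNR1 was at 0.15 and no longer called (adjusted p = 0.105). MT-CO2, a subunit of cytochrome c oxidase, rose from 1084 ± 153 to 1493 ± 135 CPM (0.46 ± 0.09, adjusted p = 0.00209).

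The complex I genes MT-ND1, MT-ND2, MT-ND4 and MT-ND5 were called at log2 fold changes of 0.49, 0.44, 0.29 and 0.45, and the oxidase genes MT-CO1 and MT-CO3 at 0.26 and 0.32. MT-ATP6 was at 0.30 ± 0.11 (adjusted p = 0.106), MT-ND4L at 0.43 ± 0.30 and MT-ND3 at 0.09 ± 0.33, none of them called. MT-ATP8 had 4 counts. The calls of MT-CYB, MT-CO2 and MT-ND1 held in all 17 alternatives, whereas that of MT-CO1 was lost in 12, those of MT-ND4 and MT-ND5 in 10 each, that of MT-RNR1 in 5, those of MT-ND2 and MT-CO3 in 3 each and that of MT-RNR2 in 1. With the length trend removed MT-RNR2 was at 0.21 (adjusted p = 0.138), MT-CO1 at 0.10 (adjusted p = 0.607), MT-ND4 at 0.13 (adjusted p = 0.498) and MT-ND5 at 0.29 (adjusted p = 0.337).

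**Figure D4:**
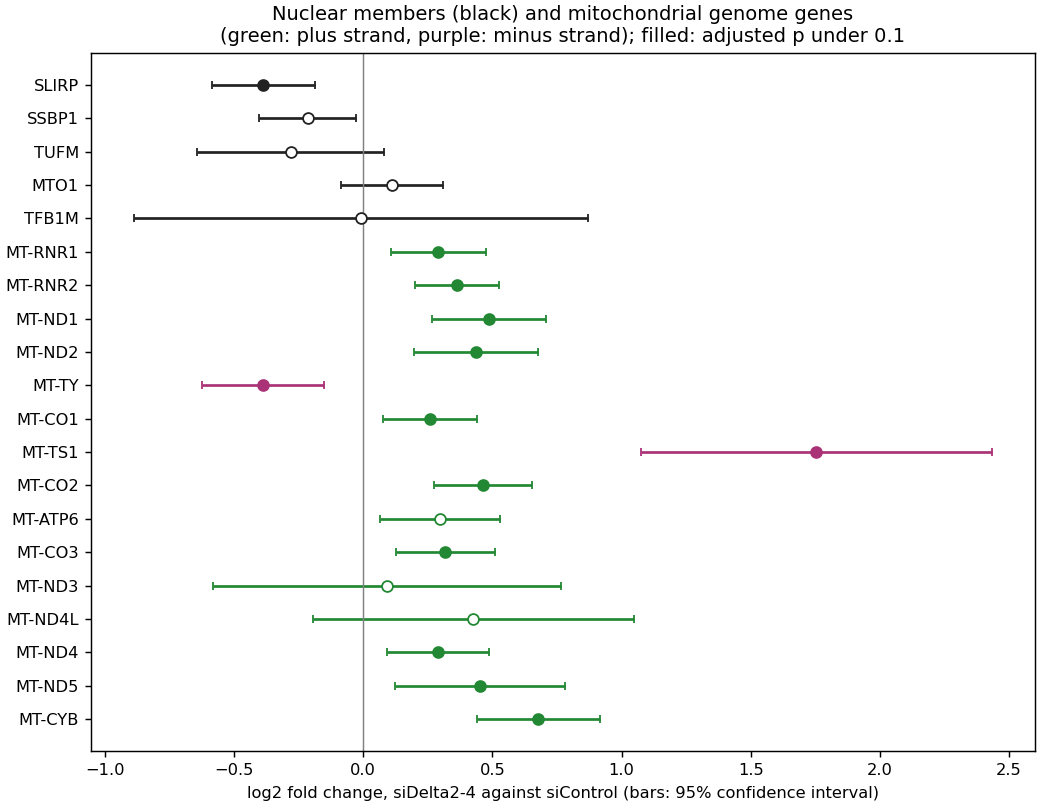
Log2 fold change of siDelta2-4 against siControl (horizontal axis) with its 95% confidence interval for the 5 tested members (black) and 15 tested genes of the mitochondrial genome in map order (green for the plus strand, purple for the minus strand), with filled points at an adjusted p under 0.1. SLIRP lies at -0.39 and the 13 plus-strand genes at 0.09 to 0.68, while the minus-strand MT-TY and MT-TS1 lie at -0.39 and 1.75.

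Genes annotated on the minus strand did not rise together. Their share was 0.0254% ± 0.000692 in siControl and 0.022% ± 0.00353 in siDelta2-4, with overlap (exact two-sided permutation p = 0.2). Those with a row are MT-ND6 and the tRNA genes whose share is given above, so the 2 shares are nearly the same counts. MT-TY held most of them, with 1442 over the 6 libraries beside 114 for MT-TS1, the next in count. The share is thus mainly the level of MT-TY and does not describe the strand. MT-TY, a tyrosine tRNA gene (chrM:5826-5891), had 251, 263 and 249 counts against 281, 231 and 167 and fell from 245 ± 6.86 to 187 ± 29.6 CPM (log2 fold change -0.39 ± 0.11, adjusted p = 0.0348), a call lost in 4 of 17 alternatives. With the length trend removed MT-TY, at 66 bases, was at -0.15 (adjusted p = 0.488). MT-TS1, a serine tRNA gene (chrM:7446-7514) between MT-CO1 and MT-CO2, had 8, 6 and 9 counts against 32, 40 and 19 and rose from 7.39 ± 1.48 to 24.9 ± 7.36 CPM (1.75 ± 0.33, adjusted p = 0.00122). MT-ND6, the complex I message of this strand, was counted 5, 4 and 5 times in siControl, against 2, 0 and 0 times in siDelta2-4 and was too low to test, as were the tRNA genes MT-TQ with 4 counts in all, MT-TE with 12 and MT-TP with 24. Each of these genes lies within the long precursor of the opposite strand. Without strand in the counts, reads of the sense gene and of the opposite precursor cannot be told apart.

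The wider machinery was read from 6 lists of partner genes, with the members left out. Of the 120 genes listed 88 had a row, and 17 passed the filter on low counts. None of the 17 was called in edgeR's test, beside 13% of all genes tested. None had an unadjusted p under 0.05 in it, beside 900 of 3888 genes (23.1%). Low levels limit this. The partners named below, other than DGUOK, had means of 16.3 to 35.4 CPM and an SE of 0.22 to 0.28. A modest change in such genes could go uncalled. By DESeq2 none was called, with 15 of the 17 given no adjusted p. Their log2 fold changes ran from -0.41 to 0.42 with a median of 0.05, 12 above 0 and 5 below, beside the median of 0.03 over all genes. Of the 19 partners of mitochondrial DNA transcription and replication 14 had a row, and 4 were tested (median 0.12). Among them were DGUOK, a nucleoside kinase that supplies DNA precursors, at 138 ± 1.69 and 137 ± 2.40 CPM, and RNASEH1, which removes RNA from hybrids with DNA, at 18.6 ± 6.05 and 22.7 ± 3.13.

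Of 27 genes for RNA processing and turnover 19 had a row, and 6 were tested (median 0.06). They included TRMT10C, a subunit of the RNase P that cuts the precursors at tRNAs, with 23.1 ± 2.87 and 24.1 ± 3.76 CPM, and REXO2, an oligoribonuclease, with 27.0 ± 5.15 and 35.4 ± 4.26 (log2 fold change 0.39 ± 0.22, adjusted p = 0.296). Of 26 translation and ribosome assembly factors 23 had a row, and 4 were tested (median -0.01). TSFM, the exchange factor of TUFM, was at 28.3 ± 8.65 and 29.1 ± 3.76 CPM, and MALSU1, an assembly factor of the large subunit, at 21.9 ± 6.37 and 16.3 ± 1.15 (-0.41 ± 0.28, adjusted p = 0.39). Of 19 aminoacyl-tRNA synthetases 14 had a row, and 3 were tested (median 0.05). The 22 genes for RNA modification, with 16 in the table and 285 counts, and the 7 nuclear regulators, with 2 in the table and 11 counts, were too low to test. The genes named from these lists were picked as examples after their values were seen.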

How the data were processed

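RNA of 3 siControl and 3 siDelta2-4 samples of Calu-6 cells was measured by long-read PCR-cDNA sequencing on 1 MinION flow cell for 72 h. The deposited values were raw counts of reads per transcript model. By the study's methods and the submitters' processing notes, the authors used minimap2 2.14 and SAMtools 1.13 on GRCh38.p14, then TranscriptClean to correct the reads, and TALON with Gencode 44 for annotation (identity 0.6, coverage 0.8). Models outside the annotation were retained by them at 5 or more reads in 3 samples. In the deposited counts each such model had at least 5 in every siDelta2-4 library. The counts carry no strand for single reads, and no exon coordinates of unannotated models were used here.

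The siRNA in a column's name gave its group, and all 6 columns were used. Counts were summed per gene identifier. Genes and transcript models were fitted in edgeR 4.0.16 under R 4.3.3 (filterByExpr, TMM, quasi-likelihood fit of 2 groups, two-sided, Benjamini-Hochberg over all features tested, called at an adjusted p under 0.1), and usage with diffSpliceDGE. The 3888 genes tested held 98.8% of the counts. The SE is the log2 fold change over the square root of the F statistic. Shares of the library were compared with an exact permutation test. Promoter strings were counted in RefSeq sequences. The scripts were tested on simulated data. Named by rule were all 10 members, every gene of the mitochondrial genome with a row, opposite-strand genes overlapping a member, and any called gene of the partner lists, of which there was none. The 6 uncalled partner genes named as examples, and the cell type markers, fall outside this rule. The members and lists were chosen with earlier results of these data known.

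Results were recomputed under alternatives: library totals alone, size factors of DESeq2 1.42.0 or its Wald test, TMM without mitochondrial genome and ribosomal protein genes, an adjusted p under 0.05, no filter, at least 10 counts per library, known models alone, the same row rule for both groups, a loess trend on length removed (span 0.4), a replicate block, and each library left out. Replicate spread and counting error both limit the precision, and PCR reads without molecular identifiers are not independent molecules.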

Additional observations from a re-analysis of the deposited data

How the results depend on the processing

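The count of 504 called genes became 254 with the DESeq2 Wald test, 304 at an adjusted p under 0.05, 252 with known models alone and 299 with a replicate block, and lay between 194 and 1041 with 1 library left out. Called transcript models, 468, lay between 173 and 1113 with 1 library left out. Genes called for usage, 7, became 4 with library totals alone and lay between 1 and 61 with 1 library left out. The difference in the mitochondrial genome share, 0.342 percentage points, was 0.112 for its protein genes alone and 0.315 to 0.374 with 1 library left out. The difference in the share of all 10 members, 0.00277 percentage points, turned to -0.0147 with known models alone and to -0.0158 without MTO1, and lay between -0.0116 and 0.0135 with 1 library left out. For the member share, both the known models alone and the setting without MTO1 leave out nearly all MTO1 counts, since 10444 of its 10449 were of unannotated models. Fewer genes and models enter the gene fit on known models. The cause of the other shifts was not tested.

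Single uncalled genes changed sign. TFB1M was at 0.0583 with library totals alone and between -0.55 and 0.27 with 1 library left out. MTO1 was at -0.0505 with the length trend removed and between -0.00527 and 0.19 with 1 library left out. MRPL43 lay between -0.0446 and 0.25, and MT-ND3 between -0.15 and 0.32, with 1 library left out. SLIRP ran from -0.49 to -0.25 over its 17 alternatives and SSBP1 from -0.25 to -0.13. The numbers in the column names did not pair the libraries, with correlations of the deviations of 0.04, -0.14 and -0.08 for the 3 numbers. The replicate block left SLIRP called (-0.38, adjusted p = 0.0338) and SSBP1 not called (adjusted p = 0.212). TFAM, TFB1M, TFB2M and LRPPRC each had under 60 counts over the 6 libraries, which limits what could be detected for them.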
